A study of Mus musculus with 12 samples.

Results

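The comparison described here sets CD8 T cells that had met antigen under costimulation blockade and lipopolysaccharide against CD8 T cells of untreated mice, across all genes. Its members are 6 of the 12 libraries in the series, 3 of each group, chosen by the treatment named in their labels, and 12499 of 16353 listed genes passed a minimum of reads and were tested. All cells carried the transgenic KB5 T cell receptor, which recognises an antigen of C57BL/6 mice, came from spleens on the CBA/J background, and were sorted on the KB5 receptor and CD8 to a purity of 95% by the labels. The inflamed cells were taken 12 h after the mouse received 10000000 C57BL/6 splenocytes into a vein (a donor-specific transfusion that carries the antigen), 0.5 mg of the anti-CD154 antibody MR1 and 100 µg of lipopolysaccharide (LPS) into the peritoneum. The naive cells came from untreated mice, so antigen, antibody and LPS differ together between the groups and their shares cannot be told apart in this comparison. A further 3 libraries from mice given splenocytes alone (activated) and 3 from mice given splenocytes and antibody without LPS (tolerized) are used below for reference. The labels call the libraries independent and leave unsaid whether each came from its own mouse, so the p-values speak only of the spread among these libraries, which may be technical.

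A naive CD8 T cell circulates in a resting state held by transcription factors such as KLF2, TCF1 and LEF1, and leaves lymphoid organs through the receptor S1PR1. Signals from its T cell receptor switch on NR4A, EGR and IRF4 transcription factors, and MYC then drives the growth in ribosomes, mitochondria and metabolic enzymes that precedes division, while a cytotoxic cell begins to make granzymes, perforin and interferon gamma. CD154, the ligand of CD40, is blocked to withhold the help that matures antigen-presenting cells. LPS is a bacterial product sensed by Toll-like receptor 4, chiefly on macrophages and dendritic cells, which release type I interferon and IL-12 in answer.

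Messenger RNA was read as counts per gene, with totals of 39395612, 84533097 and 31344106 reads in the naive and 35822132, 53432765 and 43638241 in the inflamed libraries. Levels are given in CPM (the share of a library's reads, as a TMM-scaled count on a common total), listed in the order of libraries 1, 2 and 3. Differences are log2 changes on the scale log2(CPM + 1), which understates the change of genes with low levels. Their SE (after ±) and p come from a fit shared by all 12 libraries, 3 a group. Both therefore also carry the spread of the activated and tolerized libraries, not only that of the 6 libraries compared. A gene is called when its adjusted p from limma, over all 12499 genes, is under 0.05. The median SD of a gene between libraries was 0.113 in naive and 0.153 in inflamed cells on this scale. Libraries also differed within groups: inflamed library 2 kept the most transcripts of naive-cell genes, inflamed library 1 held the most and library 3 the fewest macrophage and neutrophil transcripts, and naive library 3 was high in immediate-early genes. These values stand beside the results they touch. Of the genes described, those outside a fixed naming rule were chosen after their values were seen.

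Between the 2 groups 9050 genes were called, 72.4% of those tested, of which 4614 (36.9%) were higher and 4436 (35.5%) lower in inflamed cells. These 2 shares of all tested genes stand beside every list count against naive cells given below. Of the called genes 2334 were at least 2-fold higher and 2317 at least 2-fold lower. The genes called at least 2-fold higher supplied 14.5%, 14.5% and 14.6% of all counts in the naive libraries and 45%, 40.6% and 43.8% in the inflamed libraries. The genes called at least 2-fold lower supplied 23.6%, 23.8% and 24% in naive and 4.65%, 6.57% and 4.5% in inflamed libraries. For 2480 genes, 19.8% of those tested, the whole 95% confidence interval lay within a 1.5-fold change in either direction. Without each of the 6 libraries in turn, 7790 of the calls were made every time. The split of the calls depends on scaling, which matters in a comparison this wide: 51% of the calls were higher with the scaling used, 42.5% with upper-quartile scaling and 38.6% with library size alone, where the median of all tested genes moved from -0.01 to -0.17 and -0.27.

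**Figure D1:**
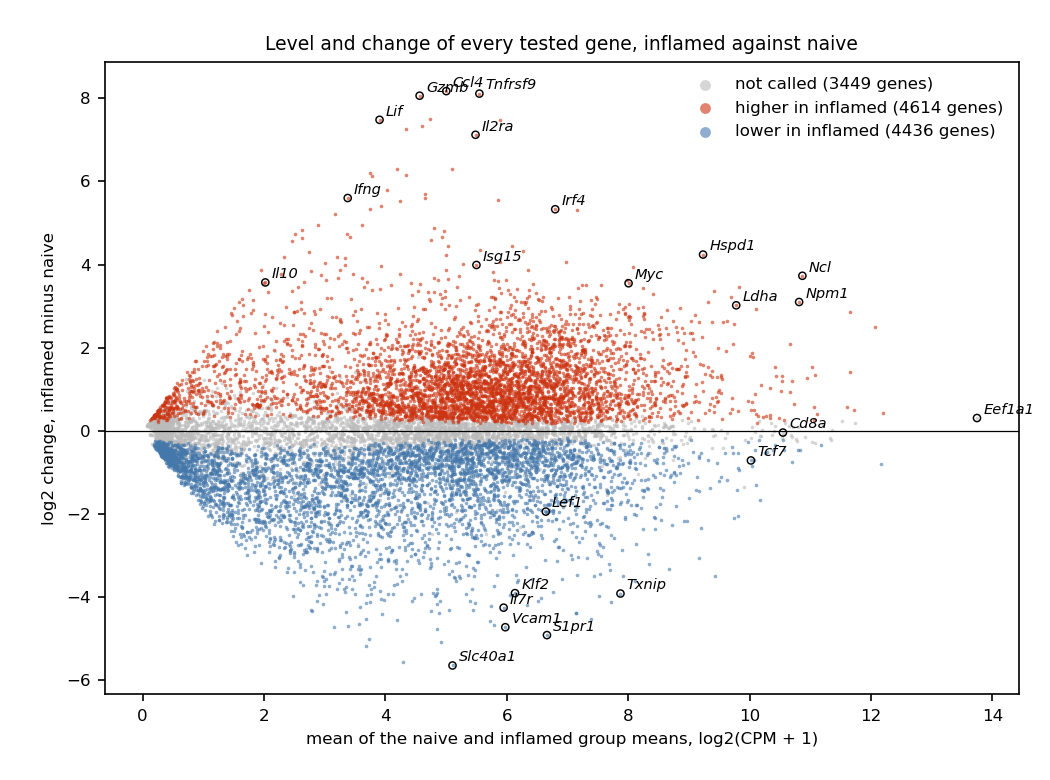
Each point is 1 of 12499 tested genes, with the mean of the naive and inflamed group means on the x axis in log2(CPM + 1) and the log2 change, inflamed minus naive, on the y axis; red genes were called higher (4614), blue genes lower (4436) and grey genes were not called (3449). The labelled genes are described in the text, among them Tnfrsf9 at 8.11 and Slc40a1 at -5.64, with Cd8a near 0.

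The T cell programme led the rises. Tnfrsf9, which encodes the costimulatory receptor 4-1BB of activated T cells, stood at 2.18, 1.76 and 1.55 CPM in naive and 863, 662 and 818 CPM in inflamed libraries. All inflamed libraries lay far above all naive ones, and the log2 change was 8.11 ± 0.19 (limma, adjusted p = 3.09e-09). Il2ra, the high-affinity chain of the IL-2 receptor, stood at 2.81, 2.49 and 3.12 against 539, 411 and 660 CPM, a rise of 7.12 ± 0.23. Other surface molecules that rose were the herpesvirus entry mediator ligand Tnfsf14 (6.16 ± 0.28) and the SLAM family receptors Slamf7 (4.60 ± 0.19) and Slamf1 (3.83 ± 0.18). Of 24 tested molecules in a list of early activation surface proteins, 14 rose and 4 fell, with a median change of 1.14 beside -0.01 for all tested genes. Not every activation marker moved that way: Cd44 stood at 56.9, 110 and 119 in naive and 78.1, 45.7 and 24.4 CPM in inflamed libraries, overlapping and not called. Cd86, a ligand of CD28 carried mostly by antigen-presenting cells, fell by 2.48 on the log2 scale. Cd69, which keeps newly activated cells in the organ, rose by 1.24 ± 0.30 from 46, 49 and 106 to 132, 121 and 206 CPM.

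Cytokine and chemokine genes had some of the widest changes. Lif, which encodes leukemia inhibitory factor, lies on chromosome 11, 4257568 to 4272514, in the GRCm38 build used for all coordinates here. It stood at 0, 0.24 and 0.131 CPM in naive and 265, 168 and 177 CPM in inflamed libraries, a log2 change of 7.48 ± 0.32 (limma, adjusted p = 5.34e-08). Ifng, the gene of interferon gamma, stood at 0.196, 0.177 and 1.36 against 84.2, 66.5 and 65.3 CPM (5.60 ± 0.30). Il10, the gene of a suppressive cytokine on chromosome 1, 131019845 to 131024970, was close to absent in naive libraries at 0.131, 0.0729 and 0.341 CPM and stood at 11.4, 13.4 and 14.4 CPM in inflamed ones (3.57 ± 0.17, adjusted p = 7.02e-08). Il21, a cytokine better known from helper T cells, was low in both groups and rose from 0.109, 0.146 and 0.105 to 2.51, 5.06 and 4.44 CPM (2.12 ± 0.17). Tnf rose by 2.53 ± 0.51 and Mif by 3.50 ± 0.26, while Il2 itself reached only 2.6, 2.01 and 2.33 CPM. In the list of secreted cytokines 9 of 13 were higher and 4 lower (median 2.12). The genes that fell were Il16 (-3.08), Ltb (-1.99), Osm (-0.56) and Tgfb1 (-0.31), and the call of Tgfb1 was lost without inflamed library 2 or 3 or naive library 2.

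Of 9 tested chemokine genes 5 rose and none fell. Xcl1, the ligand of a receptor on cross-presenting dendritic cells, stood at 0.979, 0.771 and 1.05 in naive and 333, 287 and 303 CPM in inflamed libraries (7.32 ± 0.24). Ccl4, a chemokine made by activated T cells, stood at 0.305, 0.333 and 2.89 against 715, 444 and 503 CPM (8.17 ± 0.44), and its neighbour Ccl3 rose by 7.50 ± 0.48. The other 2 calls rested on single libraries. Cxcl10, a chemokine induced by interferons, stood at 30.9, 7.93 and 4.1 CPM in inflamed libraries and was not called without library 1, and Ccl22 stayed at or below 1.01 CPM. Without inflamed library 1 the count of chemokines that rose was 3 and the median change 0.55 in place of 1.93, and without inflamed library 3 they were 7 and 3.15.

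The cytotoxic machinery rose unevenly. Gzmb, which encodes granzyme B (chromosome 14, 56258836 to 56262334), stood at 0.174, 0.687 and 0.525 CPM in naive and 434, 324 and 408 CPM in inflamed libraries, a log2 change of 8.06 ± 0.61 (limma, adjusted p = 9.15e-07). Prf1, the gene of perforin, was already present in naive cells at 62.7, 58.4 and 37.3 CPM and stood at 311, 240 and 231 CPM (2.30 ± 0.19). The granule proteoglycan gene Srgn rose by 1.75 ± 0.09, and the protease inhibitors Serpinb6b and Serpinb9, which guard killer cells against their own granzymes, by 3.27 ± 0.17 and 2.79 ± 0.19. Fasl, the death receptor ligand, rose by 2.90 ± 0.30 but only to 6.64, 6.97 and 13.5 CPM. Of 17 tested genes of the list 9 rose and 3 fell (median 0.84), and those that fell were Klrd1 (-2.87), Ctsw (-2.11) and Gzmm (-0.41). The call of Gzmm was lost without inflamed library 2 or 3 or naive library 2 or 3.

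Transcription factors downstream of the T cell receptor rose in 17 of 27 cases (median 1.60). Irf4, which scales effector growth with antigen strength, stood at 10.4, 12.2 and 34.9 CPM in naive and 710, 672 and 731 CPM in inflamed libraries (5.33 ± 0.36, adjusted p = 4.45e-07). Nr4a3 rose by 5.69 ± 0.24, Nr4a1 by 5.30 ± 0.61, Myc by 3.55 ± 0.25 and Egr2 by 3.21 ± 0.23. Naive library 3 was high in the fastest members of this group. Fos stood at 4.13, 64.3 and 549 CPM and Jun at 9.74, 203 and 944 CPM in naive libraries, against 22.5, 15.6 and 31.9 CPM for Fos and 13.9, 10.5 and 6.93 CPM for Jun in inflamed ones. The groups overlapped for both genes, and the call of Jun (-3.53) was lost without inflamed library 2 or 3 or naive library 2 or 3. Egr1 stood at 67.3, 71.1 and 296 against 164, 126 and 197 CPM and was called when naive library 3 was left out, but not with all libraries. The number of members that fell was 5, and it ranged from 2 without inflamed library 3 or naive library 3 to 8 without naive library 1, with 3 without inflamed library 2 or naive library 2. Whether the handling of naive library 3 took part in these values was not tested.

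Factors that set effector fate split. Tbx21, which encodes the effector regulator T-bet (chromosome 11, 97098007 to 97115331), stood at 1.02, 1.54 and 1.02 CPM in naive and 163, 117 and 92.6 CPM in inflamed libraries (5.80 ± 0.45, adjusted p = 1.16e-06). Its relative Eomes rose by 4.89 ± 0.22, from 3.72, 4.31 and 4.46 to 176, 132 and 149 CPM. Maf, a driver of Il10 in several T cell types (chromosome 8, 115703253 to 115706894), stood at 14.4, 30.3 and 28 against 82, 73.7 and 69.3 CPM (1.65 ± 0.35, adjusted p = 0.00138). Runx3, a regulator of the CD8 lineage, rose by 0.90 ± 0.12. In the same list of 19 genes 8 fell, among them Runx1 (-2.68 ± 0.33) and Gata3 (-2.16), and the median was -0.16. Without inflamed library 3 or naive library 3 the number that fell was 5.

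Among 15 tested co-inhibitory genes 7 were higher and 5 lower, beside 36.9% and 35.5% of all tested genes; the median was 0.11, and -0.10 or -0.22 with upper-quartile or library-size scaling. Lag3, an inhibitory receptor for MHC class II, stood at 1.61, 3.65 and 3.8 CPM in naive and 294, 335 and 286 CPM in inflamed libraries (6.30 ± 0.22, adjusted p = 2.01e-08). Pdcd1, which encodes PD-1, rose by 5.40 ± 0.24 to 108, 90.7 and 96.4 CPM, and its ligand gene Pdcd1lg2 by 3.62 ± 0.20. Tigit (4.29 ± 0.33), Ctla4 (3.98 ± 0.71) and Cd160 (3.02 ± 0.16) rose too. Havcr2, the gene of TIM-3, stayed between 0.848 and 3.17 CPM in naive and between 1.44 and 1.59 CPM in inflamed libraries and was not called. The genes that fell were Entpd1 (-2.67), Cd96 (-2.39), Cd200r1 (-2.38), Cd244 (-2.09) and Lair1 (-1.50).

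Brakes on receptor signalling and genes tied to anergy were called higher for 15 of 25 genes and lower for 5 (median 0.84). Rgs16, which quenches chemokine receptor signals, rose by 6.21 ± 0.31, and Spry1, an inhibitor of the Ras pathway, by 6.14 ± 0.33. Cblb, a ubiquitin ligase that raises the threshold for activation, stood at 106, 102 and 109 against 336, 313 and 373 CPM (1.68 ± 0.09). Dgka, a lipid kinase abundant in resting T cells that ends diacylglycerol signals, went the other way, from 1709, 1636 and 1596 to 149, 337 and 153 CPM (-3.06 ± 0.63, adjusted p = 0.00132).

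The machinery of cell growth gave the most uniform result. Ribosome biogenesis genes rose in all 38 tested cases, the median change being 2.67, against 36.9% of all tested genes. The smallest change was that of Ubtf, a factor for ribosomal RNA transcription (1.11 ± 0.13). Summed over the list, the level went from 3822, 3891 and 3659 CPM in naive to 33761, 25423 and 30105 CPM in inflamed libraries. Ncl, which encodes nucleolin and lies on chromosome 1, 86344719 to 86359455, stood at 509, 517 and 513 against 8385, 5601 and 6724 CPM (3.73 ± 0.25, adjusted p = 4.11e-07). Nop58, a core protein of the particles that modify ribosomal RNA, rose by 3.64 ± 0.18, and Nop2, a ribosomal RNA methyltransferase, by 3.51 ± 0.17. All 38 members were called higher under each of the 3 other scalings and without each of the 6 libraries.

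Genes for the ribosome's own proteins behaved differently from genes for its assembly. Of 51 tested cytosolic ribosomal protein genes 19 were higher and 7 lower (median 0.09), and the sum over the list was 73496, 76914 and 72149 CPM in naive against 80922, 83063 and 82337 CPM in inflamed libraries. This direction flips with scaling: upper-quartile scaling gave 10 higher and 21 lower with a median of -0.11, and library size gave 10 and 29 with -0.24. Rps2, of the small subunit, rose by 1.53 ± 0.12.

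Translation factors rose in 29 of 32 cases (median 1.79), and all 20 aminoacyl-tRNA synthetases rose (median 1.87). Eif5a, the only protein known to carry hypusine, stood at 259, 273 and 272 against 2496, 2436 and 2636 CPM (3.23 ± 0.15). The helicase gene Eif4a1 rose by 2.93 ± 0.15, and its paralogue Eif4a2 was the list's single fall at -0.54. Synthesis of polyamines, which supply hypusine, moved with it: Odc1, the rate-limiting enzyme, stood at 56, 55 and 103 against 1118, 991 and 1071 CPM (3.94 ± 0.25), and spermidine synthase Srm rose by 4.05 ± 0.18. In that list 9 of 13 rose, and the 4 that fell included the breakdown enzymes Smox, Sat1 (-0.52) and Paox (-0.32). The call of Paox was lost without inflamed library 1 or 2 or naive library 2 or 3 and that of Smox without inflamed library 2 or 3 or naive library 3, and 2 genes fell without inflamed library 2 or naive library 3.

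Protein folding and turnover rose on the same scale. Of 23 cytosolic chaperone genes 20 rose (median 2.33), and their sum went from 5218, 6106 and 6829 to 37969, 30253 and 35293 CPM. Hspd1, the mitochondrial chaperonin counted here with mitochondrial import, stood at 125, 144 and 145 against 2839, 2244 and 2795 CPM (4.24 ± 0.21, adjusted p = 9.27e-08). The cytosolic chaperonin subunits Cct6a (2.98 ± 0.16) and Cct3 (2.74 ± 0.13) rose with it. The heat-shock-inducible Hspa1b was high in naive libraries 2 and 3, at 18.9, 139 and 612 CPM, against 39.7, 21.6 and 9.66 CPM, and was not called. All 30 proteasome subunits rose (median 1.97), with Psma5 at 2.40 ± 0.13 and Psmd14, the lid's deubiquitinase, at 2.22 ± 0.10. The smallest rise was that of Psmb1 (0.26 ± 0.08), which library-size scaling turned to -0.07. Endoplasmic reticulum folding genes rose in 15 of 22 cases (median 1.35), among them the chaperones Hyou1 and Canx (1.94 ± 0.16).

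**Figure D2:**
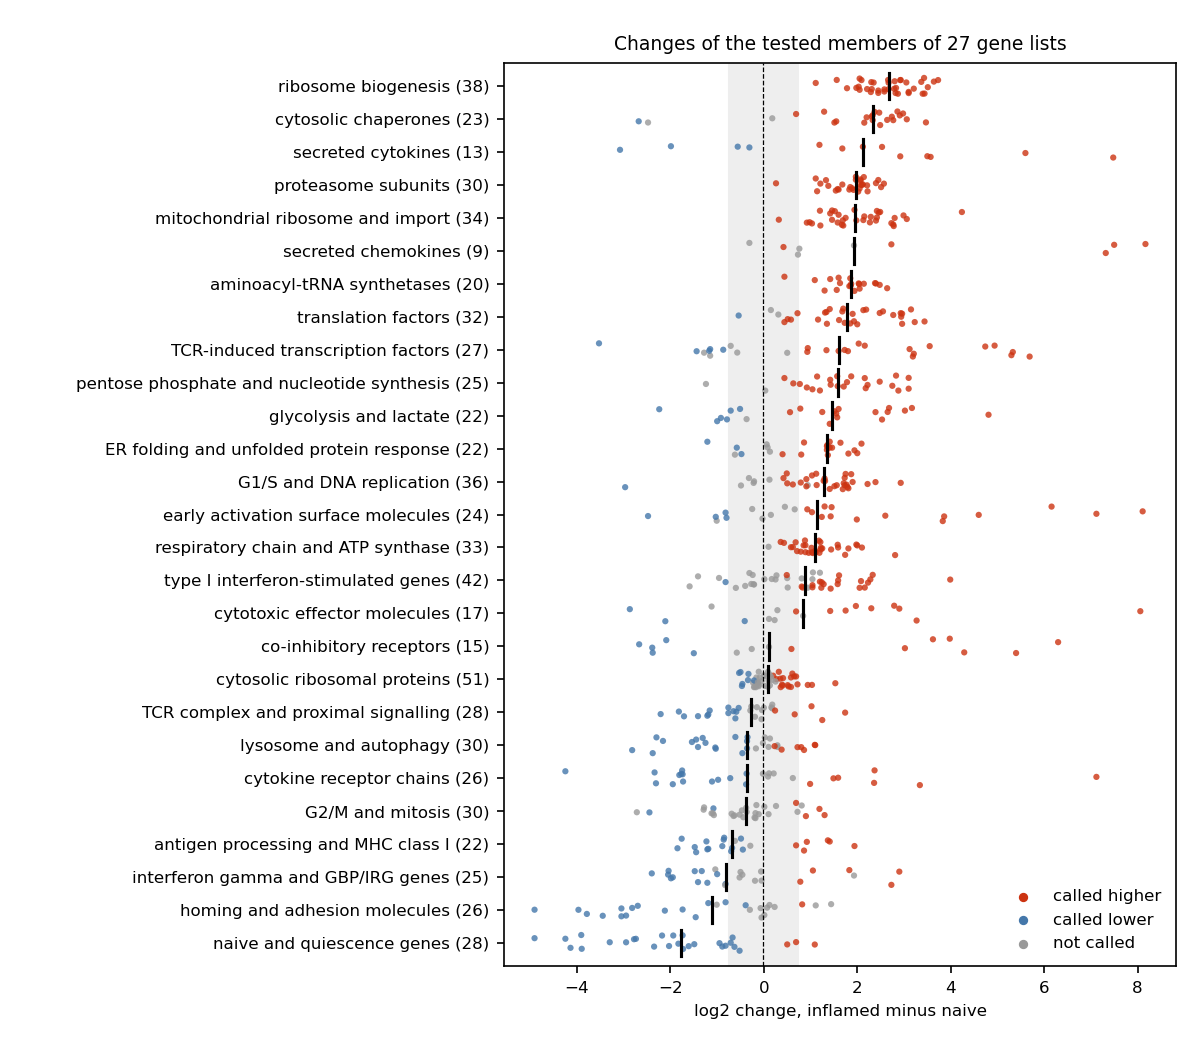
Each row is a gene list with its number of tested genes, each point a gene at its log2 change, inflamed minus naive, on the x axis; red points were called higher, blue lower and grey not called, the black bar is the list's median and the grey band spans the quartiles of all tested genes. Ribosome biogenesis (median 2.67) and proteasome subunits (1.97) lie wholly to the right of 0, while naive and quiescence genes (-1.78) lie mostly to the left.

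On a scale per length of transcript, RPKM (CPM divided by the length of the exons in kilobases), growth genes joined the most abundant messages. Npm1, which encodes the nucleolar protein nucleophosmin, went from 433 to 3748 RPKM as group means and ranked among the 10 highest genes in inflamed cells, below Eef1a1, the elongation factor, at 8557 RPKM and the chaperone Hspa8 at 4859 RPKM. In CPM Npm1 stood at 598, 653 and 594 against 6176, 4416 and 5398, a log2 change of 3.10 ± 0.21. Eef1a1 was already high in naive cells, at 12123, 13020 and 11896 against 15920, 14895 and 15111 CPM, and was not called.

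Glycolysis and its links rose in 15 of 22 cases, with a median of 1.46. Ldha, lactate dehydrogenase A (chromosome 7, 46842274 to 46855627), stood at 337, 333 and 260 CPM in naive and 2407, 2513 and 2584 CPM in inflamed libraries (3.02 ± 0.14, adjusted p = 6.76e-08). Hk2, the inducible hexokinase, rose by 4.81 ± 0.30, Pgam1 by 3.17 ± 0.14 and Pgk1 by 2.39 ± 0.11. Isoforms exchanged places in this list. Hk1 (-0.92), Ldhb (-0.79) and Pfkm fell while Hk2, Ldha, Pfkp (1.25) and Pfkl (1.41) rose. Pdk1, a kinase that shuts pyruvate out of the mitochondrion, fell by 2.24 on the log2 scale. The glucose transporter gene Slc2a1 rose by only 0.69 ± 0.14, from 40.6, 40.6 and 41.9 to 72.4, 62.8 and 65.1 CPM.

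Amino acid and nucleotide supply moved with glycolysis. Bcat1, the cytosolic branched-chain aminotransferase, stood at 0.892, 0.51 and 0.551 against 259, 206 and 285 CPM (7.25 ± 0.22, adjusted p = 1.04e-08), while its mitochondrial paralogue Bcat2 stood at 46, 48 and 42.7 against 39.4, 46.3 and 40.7 CPM. Shmt1 and Psat1 of serine and folate metabolism rose by 4.34 ± 0.18 and 3.54 ± 0.10, and 19 of 24 genes of that list rose (median 1.93). Of 25 pentose phosphate and nucleotide genes 23 rose and none fell (median 1.58), led by CTP synthase Ctps (3.10 ± 0.12), Ppat, which commits to purine synthesis (2.88 ± 0.15), and Pfas (2.75 ± 0.12). Transporters rose in 14 of 20 cases, with the folate carrier Slc19a1 at 3.64 ± 0.18, the monocarboxylate carrier Slc16a1 at 2.89 ± 0.16 and the glutamine carrier Slc1a5 at 2.29 ± 0.12.

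Mitochondrial genes rose nearly without exception. All 34 tested genes of mitochondrial ribosomes and protein import rose (median 1.96), 32 of 33 genes of the respiratory chain and ATP synthase (median 1.10) and 20 of 24 of the citric acid cycle (median 0.72). Cycs, cytochrome c, stood at 53.9, 58.7 and 53 against 408, 380 and 395 CPM (2.81 ± 0.13). Idh3a, a subunit of the cycle's NAD-linked isocitrate dehydrogenase, rose by 2.19 ± 0.09, whereas the NADP-linked enzymes Idh1 (-2.55) and Idh2 (-0.79) fell. The smallest rise among the import and ribosome genes was that of Mrpl4 (0.32 ± 0.10), and it was lost without naive library 3. In sterol and fatty acid synthesis 16 of 29 genes rose (median 0.48), with Idi1 at 2.75 ± 0.17 and Acaca, which commits carbon to fatty acids, at 2.53 ± 0.16, and the cholesterol exporters Abcg1 (-3.47) and Abca1 (-3.18) fell.

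Genes for entry into S phase rose, and most of those for mitosis were not called. Of 36 tested G1/S and replication genes 29 rose and 1 fell, E2f2 (-2.97, not called without inflamed library 3), with a median of 1.29. Mcm2, a subunit of the replicative helicase, stood at 47.1, 45.2 and 48.6 against 266, 241 and 244 CPM (2.39 ± 0.13, adjusted p = 1.26e-07). Of 30 G2/M genes 4 were called higher and 2 lower, with a median of -0.38, and their summed level was 175, 187 and 308 CPM in naive and 166, 176 and 171 CPM in inflamed libraries. Without naive library 1 or 2 the number called higher was 2, and without inflamed library 1 or 3 or naive library 3 the number called lower was 1. Mki67, a marker of cycling cells, stood at 19.7, 24.3 and 51.2 against 4.5, 5.72 and 1.59 CPM, without overlap but also without a call (-2.72 ± 1.18). The shared fit also counts the spread of the tolerized libraries, where the G2/M list summed to 220, 497 and 1608 CPM. A missing call for a mitotic gene therefore does not show that its level was the same in naive and inflamed cells. Among G1 regulators Ccnd2 (2.61 ± 0.29), Cdk6 (2.30 ± 0.16) and Cdk4 (1.91 ± 0.13) rose and the inhibitors Cdkn2d (-3.18) and Cdkn1b (-2.74) fell. The inhibitor Cdkn1a rose by 3.85 ± 0.39, from 0.283, 0.344 and 2.41 to 36.9, 26.5 and 15.8 CPM.

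Genes of the resting state fell broadly. Of 28 tested naive and quiescence genes 25 fell, against 35.5% of all tested genes, and 3 rose (Slfn2, Bach2 and Foxp1, the last not called with upper-quartile or library-size scaling), with a median of -1.78. Summed over the list, the level was 11351, 11376 and 10388 CPM in naive and 4386, 5404 and 4325 CPM in inflamed libraries. Klf2, which keeps T cells quiescent and recirculating (chromosome 8, 72319062 to 72321654), stood at 230, 253 and 342 CPM in naive and 12.8, 41.3 and 9.26 CPM in inflamed libraries (-3.90 ± 0.82, adjusted p = 0.00145). Il7r, the receptor for the survival cytokine of resting cells, stood at 287, 273 and 246 against 5.81, 44.4 and 8.17 CPM (-4.25 ± 0.94). For both genes inflamed library 2 was the highest of its group. Lef1 fell by 1.94 ± 0.30, Foxo1 by 1.49 ± 0.31 and Tcf7, the gene of TCF1, by 0.71 ± 0.16, the last from 1437, 1359 and 1201 to 846, 889 and 712 CPM. Txnip, an inhibitor of glucose uptake, stood at 849, 975 and 898 against 38, 141 and 39.1 CPM (-3.91 ± 0.65).

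Genes of exit and homing were among the deepest falls. S1pr1, the exit receptor (chromosome 3, 115710433 to 115715055), stood at 606, 602 and 465 CPM in naive and 8.07, 87.3 and 6.88 CPM in inflamed libraries, without overlap (-4.91 ± 1.26, limma adjusted p = 0.00468). Inflamed library 2 lay far above the others of its group. Itgae, the integrin chain CD103, fell by 3.79 ± 0.58, S1pr4 by 3.05 ± 0.63 and Ccr7, a receptor for lymph node chemokines, by 0.82 ± 0.15. In all 15 of 26 genes of this list fell and 1 rose, the integrin chain Itgb1 (0.82 ± 0.14), with a median of -1.10. Without inflamed library 3 the number that rose was 2.

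Receptors for cytokines changed their makeup. Il2rb (2.37 ± 0.24), Il15ra (2.36 ± 0.24) and Il12rb1 rose beside Il2ra, and Il12rb1, a chain of the IL-12 receptor, stood at 7.63, 7.02 and 6.93 against 88.5, 85.8 and 72.6 CPM (3.34 ± 0.11, adjusted p = 1.47e-08). Its partner Il12rb2 rose by 1.49 ± 0.15, from 1.78, 2.75 and 2.05 to 6.97, 8.26 and 8.54 CPM. Against these rises stood falls of Il7r, of both interferon gamma receptor chains Ifngr1 (-1.11) and Ifngr2 (-2.34), of both type I interferon receptor chains Ifnar1 (-1.75) and Ifnar2 (-0.98) and of the TGF-beta receptor Tgfbr2 (-1.74). Of 26 tested chains 7 rose and 14 fell (median -0.37).

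Several chains of the antigen receptor complex and its co-receptor fell at the level of message. Cd3d (-1.41 ± 0.26), Cd3g (-1.16 ± 0.20), Cd8b1 (-1.19 ± 0.21) and Thy1 (-1.45 ± 0.21) fell, while Cd8a stood at 1671, 1623 and 1286 against 1415, 1468 and 1556 CPM and was not called. Zap70, the kinase next to the receptor, rose by 1.74 ± 0.14 from 181, 166 and 157 to 571, 535 and 583 CPM, and the costimulatory receptor Cd28 by 1.25 ± 0.11. Rasgrp1, which carries diacylglycerol signals to Ras, fell by 1.82 ± 0.24, and Plcg1, which makes that diacylglycerol, by 2.21 on the log2 scale. In the list 5 of 28 genes rose and 13 fell (median -0.28), and in a set of 9 T lineage markers 7 fell. The sum over those markers was 6492, 6418 and 5279 CPM in naive and 3611, 3905 and 3638 CPM in inflamed libraries, so the sorted cells still held the defining genes of their label at high levels.

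Genes of the type I interferon and interferon gamma lists were compared with naive cells and with both other antigen-treated groups. Many of these genes carry interferon response elements near their start, to which ISGF3 or IRF proteins bind, and GAAA followed after a pair of any bases by GAAA is the core of such elements. The 180 bases upstream of the start are printed for 4 members of the type I list that were called higher than in naive cells and for 2 guanylate-binding protein genes that were called lower, from RefSeq promoters of GRCm38.p6, in the direction of the gene, with every match to GAAA, any 2 bases and GAAA in capitals on either strand (TTTC, any 2 bases and TTTC as printed when it lies on the other), overlapping matches joined. Only called members with a match in this window were taken for printing, and of several starts the one with the most matches. Every printed stretch therefore holds the letters by choice, and the shares over whole lists follow below. Isg15 has 3 matches that begin 78, 72 and 66 bases before the start, at chr4:156200819-156200998 on the minus strand. Bst2 has 2, at 130 and 124 bases, in chr8:71537473-71537652 on the minus strand. Ifit1 has 2, at 104 and 85 bases, in chr19:34640709-34640888 on the plus strand, and Oas3 has 1, at 75 bases, in chr5:120777660-120777839 on the minus strand. Gbp2 has 1, at 59 bases, in chr3:142620483-142620662, and Gbp3 has 2, at 45 and 39 bases, in chr3:142559864-142560043, both on the plus strand.
Isg15: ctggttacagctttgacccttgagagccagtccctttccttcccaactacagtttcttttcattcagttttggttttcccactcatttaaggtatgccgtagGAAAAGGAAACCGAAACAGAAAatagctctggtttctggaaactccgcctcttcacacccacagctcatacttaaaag
Bst2: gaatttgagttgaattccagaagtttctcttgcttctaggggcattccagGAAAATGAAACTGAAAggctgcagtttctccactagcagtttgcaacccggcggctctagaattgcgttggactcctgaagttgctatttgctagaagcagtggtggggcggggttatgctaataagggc
Ifit1: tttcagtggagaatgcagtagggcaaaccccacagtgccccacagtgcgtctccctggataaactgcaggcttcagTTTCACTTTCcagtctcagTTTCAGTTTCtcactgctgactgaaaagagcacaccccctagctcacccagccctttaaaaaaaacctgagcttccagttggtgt
Oas3: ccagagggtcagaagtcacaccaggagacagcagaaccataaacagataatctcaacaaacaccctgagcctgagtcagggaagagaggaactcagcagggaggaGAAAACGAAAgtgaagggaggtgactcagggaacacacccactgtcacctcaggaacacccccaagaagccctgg
Gbp2: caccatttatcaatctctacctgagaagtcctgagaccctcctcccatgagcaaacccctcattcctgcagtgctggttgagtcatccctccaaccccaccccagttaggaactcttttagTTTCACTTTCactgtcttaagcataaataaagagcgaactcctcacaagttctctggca
Gbp3: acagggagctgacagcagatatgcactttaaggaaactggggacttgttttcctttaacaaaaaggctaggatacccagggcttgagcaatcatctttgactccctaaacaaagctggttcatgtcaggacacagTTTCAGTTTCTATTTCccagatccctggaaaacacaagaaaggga

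Over the 250 bases before the start these letters occurred in 978 of 32851 promoters (2.98%) and in 338 of the 10049 tested genes with a promoter in the table (3.36%). They occurred in 12 of 30 promoters of the type I list (40%) and in 11 of 15 of the interferon gamma list (73.3%), against 0 of 34 for ribosome biogenesis. Among the 12 type I genes with the letters 9 were called higher than in naive cells and none lower, with a median of 1.26, and among the 18 without them 8 were higher, with a median of 0.51. The 11 genes of the interferon gamma list with the letters had 3 called higher and 3 lower, with a median of -0.52, and the 4 without them had 1 higher and 2 lower, with a median of 0.26. For comparison, the E-box CACGTG, which MYC and other factors bind, occurred in 9.91% of tested genes with a promoter, in 1 of 34 ribosome biogenesis promoters (2.94%), in 4 of 22 glycolysis promoters (18.2%), in 7 of 30 of mitochondrial ribosome and import genes (23.3%) and in 3 of 24 of naive and quiescence genes (12.5%). A match here is a run of letters, not a measured binding site.

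Isg15, which encodes a ubiquitin-like protein induced by type I interferon (chromosome 4, 156199424 to 156200818), stood at 9.83, 11.5 and 9.76 CPM in naive and 248, 161 and 145 CPM in inflamed libraries (3.99 ± 0.21, adjusted p = 1.19e-07). Ifit1, which binds foreign RNA ends (chromosome 19, 34640889 to 34650009), stood at 18.6, 17.8 and 10.9 against 83.9, 66 and 68.2 CPM (2.16 ± 0.52). Usp18, which removes ISG15, rose by 2.28 ± 0.58, Oasl1 by 2.33 ± 0.29 and Bst2, the virus tether, by 2.23 ± 0.20 from 39.9, 45.6 and 33.2 to 254, 177 and 147 CPM. All 3 inflamed libraries lay above all naive ones for each of these genes, and library 1 was the highest each time. Oas3 was called (2.08 ± 0.79), but not without any 1 of inflamed libraries 1 and 2 or of the naive libraries.

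Against naive cells the type I list showed a limited rise: 20 of 42 genes were called higher and 1 lower, with a median of 0.88, and none was called lower without inflamed library 3 or naive library 1 or 2. This count depended on single libraries, with 11 higher without inflamed library 1, 12 without naive library 3 and between 14 and 22 without each of the others, and on scaling, with 16 under upper-quartile and 9 under library-size scaling. Irf7, the amplifier of the type I response, stood at 74.2, 84.7 and 67.5 in naive and 199, 132 and 89.2 CPM in inflamed libraries and was not called. The naive libraries held a standing level of these genes, with a summed level of 2867, 2897 and 2355 CPM against 4360, 3576 and 2667 CPM in inflamed libraries. Both other treated groups lay below naive, at 736, 973 and 1359 CPM in activated and 629, 776 and 1561 CPM in tolerized libraries, and the inflamed cells were higher than tolerized cells in 28 of 42 genes and than activated cells in 27, with none lower by limma, where 1.66% and 1.54% of all tested genes were called higher. Leaving out 1 library gave 19 to 38 genes higher than in tolerized cells (19 without inflamed library 1 or tolerized library 2) and 16 to 28 higher than in activated cells (17 without inflamed library 1 or 2 and 16 without activated library 2). The medians of the list were 2.10 and 2.36 in these comparisons, which share the inflamed libraries.

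Of 25 tested guanylate-binding protein genes and other genes linked to interferon gamma 5 were called higher than in naive cells, 11 lower and 9 neither, with a median of -0.82, although Ifng itself rose. Gbp2, a GTPase that attacks pathogen membranes, stood at 93, 102 and 71.4 against 49.1, 34.9 and 16.8 CPM (-1.48 ± 0.47, adjusted p = 0.0143), and Gbp3 fell by 1.33 ± 0.54. The call of Gbp2 was lost without inflamed library 3 and that of Gbp3 without any 1 of the 6 libraries. Irf1, the factor that drives many of them, stood at 325, 322 and 328 against 149, 144 and 84 CPM (-1.41 ± 0.28), and Ciita, the master switch of MHC class II, fell by 1.95 ± 0.27. B cell markers fell by a similar amount (median -1.90), and the part of other cells in the fall of Ciita was not tested. Socs1, a feedback inhibitor of interferon receptors, rose by 1.05 ± 0.15 from 27, 27.3 and 22.7 to 52.9, 56.7 and 51.9 CPM. The number lower was 4, with 6 higher, without inflamed library 3, and it was 6 without naive library 2. Against tolerized cells 11 of the 25 were higher (1.66% of all tested genes) and none lower, a number that was 5 without inflamed library 1 or 2 or tolerized library 2, and against activated cells 3 were higher (1.54% of all tested genes), or 2 without inflamed library 1 or 2 or activated library 1 or 2 and 7 without activated library 3. The fall from naive was deeper in those groups, with 21 of the 25 lower in tolerized (median -2.35) and 18 in activated cells (median -1.74).

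**Figure D3:**
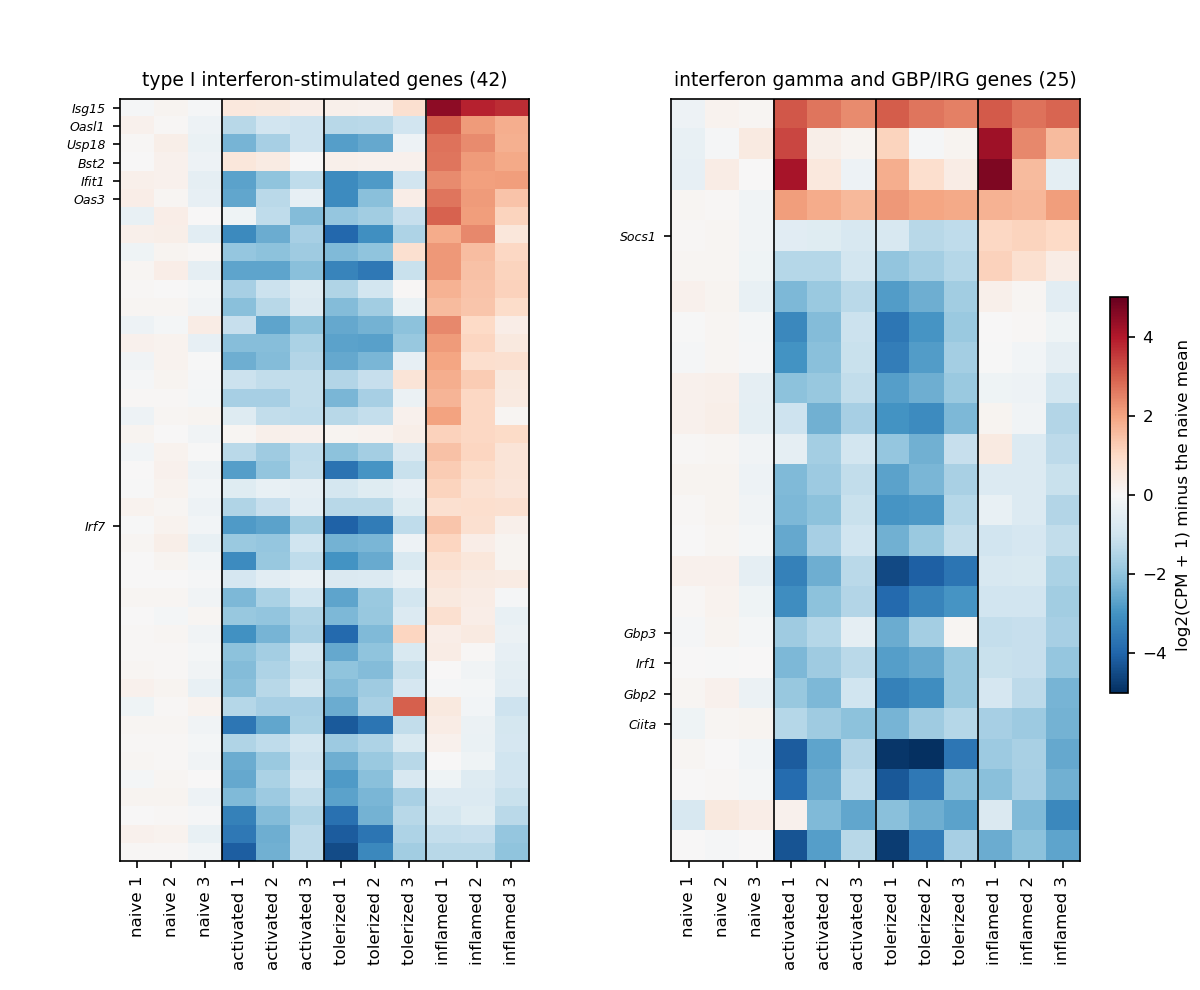
Each row is a gene of the type I interferon list (left, 42 genes) or of the interferon gamma and guanylate-binding list (right, 25 genes) and each column 1 of 12 libraries, with 12 of the genes labelled and colour for log2(CPM + 1) minus the naive mean of that gene, red above and blue below it. Isg15 at the top is red in all 3 inflamed libraries, most activated and tolerized cells of the type I list are blue, and in the list on the right the 3 inflamed columns are blue for genes such as Gbp2.

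MHC class I and its loading complex moved in opposite directions by step. The folding helpers Canx (1.94 ± 0.16), Pdia3 (1.41 ± 0.11) and Calr (1.37 ± 0.16) rose with the endoplasmic reticulum genes, and the aminopeptidase Erap1 rose by 0.92 ± 0.10. The heavy chain genes H2-D1 (-1.23) and H2-K1 (-0.85), the peptide pump gene Tap1 (-0.89) and B2m (-0.45) fell. The call of Tap1 was lost without inflamed library 3 and that of B2m without inflamed library 3 or naive library 1 or 2. Of 22 genes 6 rose and 14 fell (median -0.69). Class I genes share sequence, so reads may be divided between them.

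Signalling genes of inflammation gave a mixed picture. Rel, the NF-kB subunit tied to T cell activation, rose by 1.80 ± 0.20 and Nfkb2 by 1.65 ± 0.18, while the kinase Map3k14 and the inhibitor Tnip1 fell by 1.42 ± 0.15 and 1.51 ± 0.18. The inhibitor Nfkbia stood at 107, 109 and 329 in naive and 184, 129 and 165 CPM in inflamed libraries, overlapping, with the highest value in naive library 3. Of 23 NF-kB genes 11 rose and 6 fell (median 0.11), beside 36.9% and 35.5% of all tested genes. With library-size scaling 7 rose and 9 fell (median -0.22) and with upper-quartile scaling 8 and 9 (median -0.10). In the Toll-like receptor pathway 6 of 24 rose (25%) and 9 fell (37.5%), with a median of -0.46, or 1 and 13 with library-size scaling. The share that fell was near the 35.5% of all tested genes. Tlr4, the receptor for LPS, fell by 2.26 and Tlr6 by 2.79 ± 0.52, the latter from 27.2, 25.6 and 20 to 3.58, 4.5 and 0.894 CPM.

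Among STAT and SOCS genes Cish, a feedback target of STAT5, had the widest change, from 5.72, 5.21 and 4.3 to 174, 118 and 175 CPM (4.67 ± 0.27, adjusted p = 1.86e-07). Stat3 rose by 1.19 ± 0.10 and Ptpn2, a phosphatase that dampens JAK signals, by 1.19 ± 0.16. Stat5b fell by 0.79 ± 0.10. In the list 10 of 24 rose (41.7%) and 8 fell (33.3%), near the 36.9% and 35.5% of all tested genes. The median of 0.16 was -0.04 and -0.16 under upper-quartile and library-size scaling.

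Stress and death genes rose more often than they fell. In the list of p53 targets and death genes 16 of 29 rose and 5 fell (median 0.62), or 3 without inflamed library 3 or naive library 1. Bax, which opens the mitochondrion, rose by 2.12 ± 0.12, Phlda3, a p53 target, by 2.52 ± 0.18 and the survival gene Bcl2l1 by 1.23 ± 0.23, from 10.1, 10 and 9.97 to 27.8, 19.8 and 28.2 CPM. Bmf, a death activator, fell by 2.74 ± 0.21. Bcl2a1b rose by 2.61 ± 0.17, though its near-identical copies may share its reads. Thioredoxin Txn1 (2.15 ± 0.17) and peroxiredoxin Prdx1 (2.03 ± 0.12) rose among 11 of 20 oxidative stress genes, with 4 falls, or 2 without inflamed library 3 or naive library 3.

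Of 18 tested genes that answer to glucocorticoids 3 rose and 9 fell (median -0.90). Fkbp5, a co-chaperone of the receptor, stood at 47.9, 48.9 and 40 against 223, 241 and 239 CPM (2.34 ± 0.10), whereas Sgk1 went from 91.1, 106 and 142 to 3.94, 12.7 and 5.24 CPM (-3.90 ± 0.58) and the receptor gene Nr3c1 fell by 1.06 ± 0.21. Clock genes were called higher in 11 of 21 cases and lower in 6 (7 and 9 with library-size scaling), beside 36.9% and 35.5% of all tested genes. Among them Cry1 stood at 0.97 ± 0.10 and Nr1d2 at -1.09 ± 0.12. Of 30 lysosome and autophagy genes 16 were lower and 7 higher, among the falls the cathepsin genes Ctsd (-2.30) and Ctsb (-1.41, not called without inflamed library 3 or naive library 2 or 3).

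The other treated groups show which of these values also occur without LPS. Against tolerized cells 348 genes were called (2.78%), 208 higher (1.66%) and 140 lower (1.12%), and against activated cells 240 (1.92%), 192 higher (1.54%) and 48 lower (0.384%). These counts rest on few libraries: leaving out 1 library gave 156 to 540 genes against tolerized and 107 to 338 against activated cells, with 185 and 132 without inflamed library 1, 178 and 124 without inflamed library 2, 467 and 338 without inflamed library 3, 540 without tolerized library 1, 156 without tolerized library 2 and 107 without activated library 2. With only the 2 groups in the fit the counts were 151 and 99. In every fit without 1 library 144 and 93 of the genes were called. No gene of ribosome biogenesis, translation factors, proteasome, respiratory chain or mitochondrial import was called in either comparison by limma. Of these 167 genes 2 had an unadjusted p under 0.05 in each comparison, and limma with voom weights called none.

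Unless stated otherwise, the calls that follow were also made without each library in turn. Lif stood at 18.2, 11.6 and 22.3 CPM in tolerized and 24.3, 11.4 and 10.8 CPM in activated libraries, so the inflamed libraries, at 265, 168 and 177 CPM, lay above all of them (3.49 ± 0.32, adjusted p = 0.000268, and 3.69 ± 0.32, adjusted p = 0.000203, by limma). Il10 stood at 0, 0.0446 and 0.495 CPM in tolerized and 0, 0 and 0.075 CPM in activated libraries, against 11.4 to 14.4 CPM in inflamed ones (3.59 and 3.77). Il21 was higher by 2.29 and 2.21 on the same scale.

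Tbx21 stood at 7.14, 6.65 and 30.7 CPM in tolerized and 7.38, 6.58 and 6.82 CPM in activated libraries, below the 92.6 to 163 CPM of inflamed ones (3.28 and 3.94). Tolerized library 3 stood apart from its group for this gene. Maf stood at 3.15, 3.08 and 6.17 CPM in tolerized and 9.11, 4.53 and 3.67 CPM in activated libraries, below naive as well as inflamed cells (inflamed higher by 3.94 and 3.57).

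The receptor chain gene Il12rb1 stood at 22.8, 21.2 and 21.5 CPM in tolerized and 18.5, 22 and 19 CPM in activated libraries, below the 72.6 to 88.5 CPM of inflamed ones, and was called in both comparisons. Il12rb2 (1.80 and 1.88) was higher too. Higher in inflamed cells as well were Cish (1.98 and 1.80), Stat3 (0.85 and 0.80) and Socs1 (2.20 and 1.71). Gzmb was less clear: tolerized libraries stood at 35.4, 37.9 and 261 CPM and activated ones at 54.7, 33.5 and 54.1 CPM, the call against activated cells (3.03, adjusted p = 0.0278) was lost without any 1 library, and the difference from tolerized cells was not called (2.43, adjusted p = 0.0644). Ctla4, at 1.55, 1.63 and 1.01 CPM in activated and 1.6, 6.56 and 30 CPM in tolerized libraries, was called against activated cells alone, and not without inflamed library 2 or activated library 2.

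Some genes induced by antigen were lower in inflamed cells than in both treated groups without LPS, one of which also received the blockade. Fasl stood at 76.4, 55.3 and 45.9 CPM in tolerized and 60.4, 40.1 and 31.2 CPM in activated libraries, above the 6.64 to 13.5 CPM of inflamed ones (-2.62 and -2.18). Xcl1 stood at 1149, 828 and 718 CPM in tolerized and 1180, 708 and 556 CPM in activated libraries, above the 287 to 333 CPM of inflamed ones (-1.52 and -1.33), and the call against activated cells was lost without inflamed library 1 or 2 or activated library 2. Wnt10b, a secreted signalling protein, stood at 23.7, 25.4 and 15.5 and at 14.8, 23.3 and 17.7 CPM against 1.71, 2.18 and 5.66 CPM (-2.51 and -2.32). Bcl2l1 (-1.46 and -1.45), the adenosine receptor gene Adora2a (-1.84 and -1.63) and the adaptor gene Stap1 (-2.09 and -1.97) were lower too.

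Of 36 replication genes 14 were called lower than in tolerized cells, beside 1.12% of all tested genes, with a median of -0.52. None was called against activated cells by limma, where 4 had an unadjusted p under 0.05 and voom weights gave none. Mcm3 stood at 267, 313 and 280 CPM in tolerized, 223, 225 and 179 CPM in activated and 165, 168 and 162 CPM in inflamed libraries (-0.79 and -0.33, the first called). The count of 14 ranged from 3 without tolerized library 2 to 20 without tolerized library 1, and was 4, 5 and 6 without inflamed library 1, inflamed library 2 and tolerized library 3. Tolerized library 3 was also the highest for mitotic genes, with a summed level of 220, 497 and 1608 CPM in tolerized libraries.

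**Figure D4:**
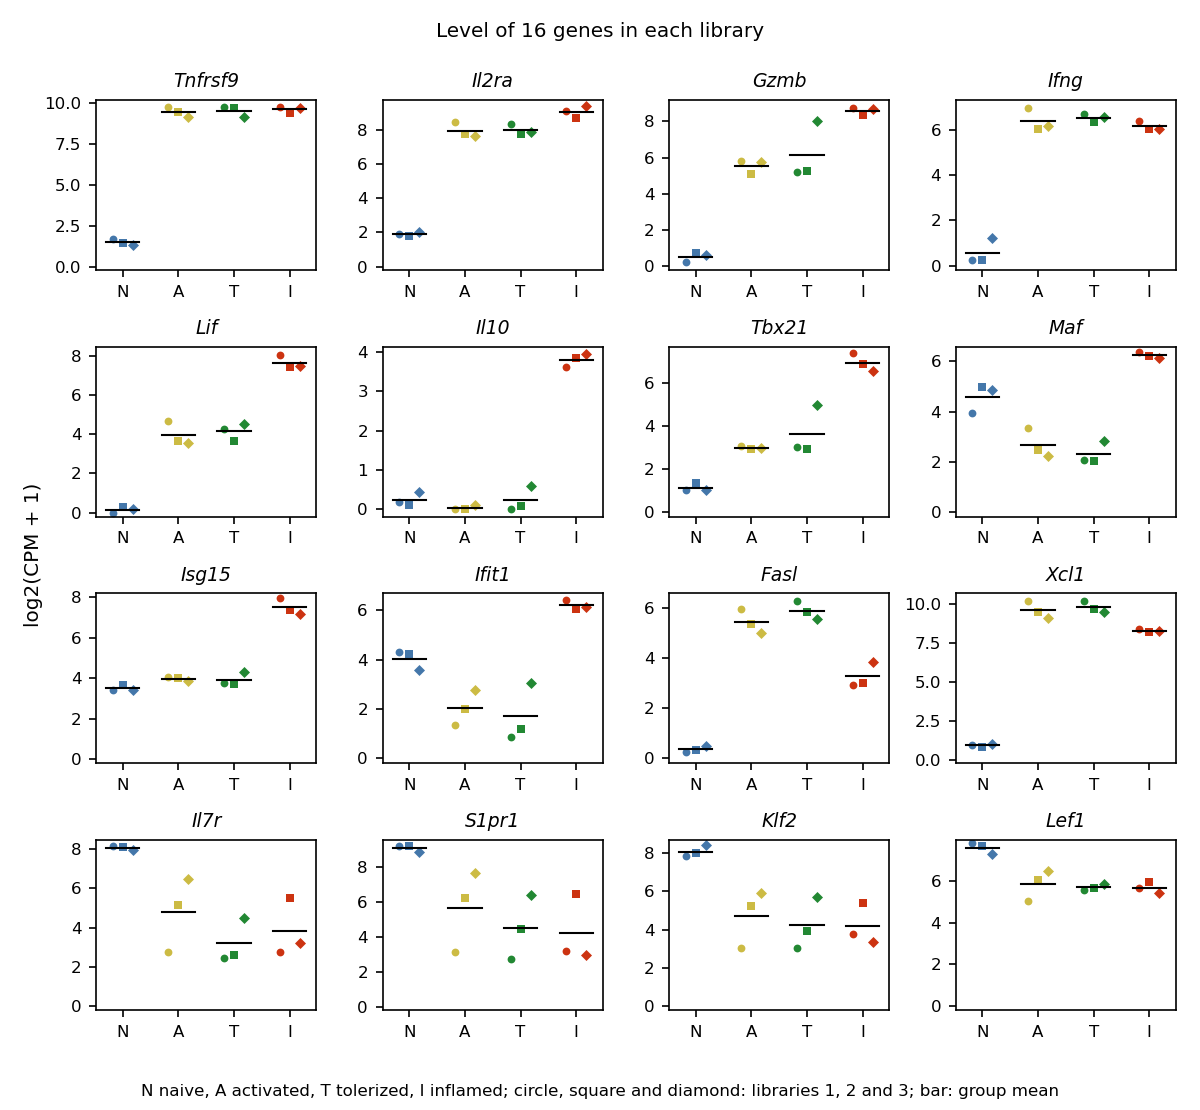
The level of 16 genes on the y axis in log2(CPM + 1) is shown for each of 12 libraries by group on the x axis (N naive, A activated, T tolerized, I inflamed; circle, square and diamond mark libraries 1, 2 and 3, bars are group means). Tnfrsf9 is high in all treated groups, Lif, Il10, Tbx21, Isg15 and Ifit1 are highest in the 3 inflamed libraries, and Fasl and Xcl1 are lower there than in activated and tolerized ones.

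Markers of other spleen cells moved with the groups and belong beside these results. The part of such cells in the falls described above, among them Cd86, Ciita, Tlr4, Ctsd, Abca1 and Lair1, was not tested. The deepest falls of the whole comparison were genes of red pulp macrophages, which recycle iron from red cells. Slc40a1, the iron exporter (chromosome 1, 45908070 to 45926532), stood at 130, 340 and 321 CPM in naive and 6.42, 12 and 0.199 CPM in inflamed libraries (-5.64 ± 0.98, adjusted p = 0.000422), and the mannose receptor gene Mrc1 at 70.5, 192 and 177 against 2.02, 6.7 and 0 CPM. Of 19 tested markers 17 fell and 1 rose, and their summed level was 1135, 2831 and 2871 CPM in naive and 671, 256 and 34.5 CPM in inflamed libraries. The number that fell was 10 without inflamed library 3 and 11 without naive library 3. The exception was Marco, a scavenger receptor of marginal zone macrophages, at 0.479, 1.49 and 1.15 against 170, 45.9 and 3.33 CPM (4.03 ± 1.13). Against naive cells 18 of the 19 markers were also lower in tolerized cells and 13 in activated cells. In bulk samples fewer cells of a type and less RNA per cell cannot be told apart.

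All 14 B cell markers fell (median -1.90), with sums of 1210, 1742 and 1825 against 554, 419 and 235 CPM, and 15 of 16 erythroid markers, with sums of 1541, 1377 and 3231 against 561, 573 and 525 CPM. The exception there was Tfrc (2.60 ± 0.23), the transferrin receptor, which dividing T cells also express. Haemoglobin genes are near-identical pairs that may share reads. These falls were not particular to inflamed cells. Against naive cells, all 14 B cell markers were also lower in tolerized (median -1.75) and in activated cells (median -1.86). So were 15 of the 16 erythroid markers in each (medians -2.24 and -2.41). Of all 12499 tested genes, 4488 and 4418 were lower in these comparisons. Platelet markers (3 of 3 tested fell, sums of 20.4, 20.2 and 19.8 against 3.61, 5.88 and 3.18 CPM) and dendritic cell markers (9 of 12 fell, 525, 577 and 487 against 404, 354 and 276 CPM) were lower too. The dendritic cell sums include Bst2, which rose as given above, so the other members summed together fell further than these sums show. In tolerized and in activated cells, against naive, the same numbers of platelet and dendritic cell markers fell. Monocyte markers summed to 287, 385 and 365 CPM in naive and 550, 402 and 189 CPM in inflamed libraries, with 2 called higher and 3 lower of 15, or 4 and 1 without inflamed library 3 and 1 and 1 without naive library 1. Without inflamed library 1 or 2 or naive library 2 or 3 the number called higher was 1. Of the remaining marker lists, natural killer cell markers had 2 higher and 5 lower of 9, CD4 and regulatory T cell markers 2 and 2 of 9, and plasma cell markers 2 and 3 of 6. The shares of all tested genes were 36.9% higher and 35.5% lower. Stroma and endothelium markers had 3 higher and 2 lower of 7, with 1 higher without inflamed library 2 and 0 without inflamed library 3. Their sum over 10 genes fell, from 234, 258 and 236 CPM in naive to 42.2, 56.9 and 27.9 CPM in inflamed libraries. Natural killer cell markers summed to 140, 188 and 170 against 462, 382 and 426 CPM, and their list holds Eomes. Plasma cell markers summed to 176, 213 and 259 against 829, 787 and 833 CPM, and their list holds Irf4. Both genes rose, as given above. CD4 and regulatory T cell markers summed to 87.3, 107 and 102 against 133, 136 and 149 CPM.

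Neutrophil markers rose in 6 of 12 tested genes and fell in 1 (median 1.42; no fall was called without inflamed library 3 or naive library 2 or 3), and their level differed between inflamed libraries: 392, 155 and 17.8 CPM against 19.9, 23.6 and 30 CPM in naive ones. Lcn2, the granule protein lipocalin 2, stood at 92.5, 28.8 and 2.76 CPM against 0.566, 0.864 and 1.1 CPM (3.58 ± 0.86). The defining granule genes Elane, Mpo and Prtn3 had too few reads to test. The number that rose was 3 without inflamed library 1 or 2 or without any 1 naive library, and 10 without inflamed library 3. The order of the inflamed libraries in these markers, 1 above 2 above 3, is also their order in the summed type I interferon genes, and the part of other cells in that result was not tested. Among genes higher than in both other treated groups, Tbx21, Maf and Il12rb1 had that order as well. Il10, at 11.4, 13.4 and 14.4 CPM, and Il21, lowest in library 1, did not have it. Lif, Il12rb2, Cish and Socs1 did not have it either, though Lif was highest in library 1.

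**Figure D5:**
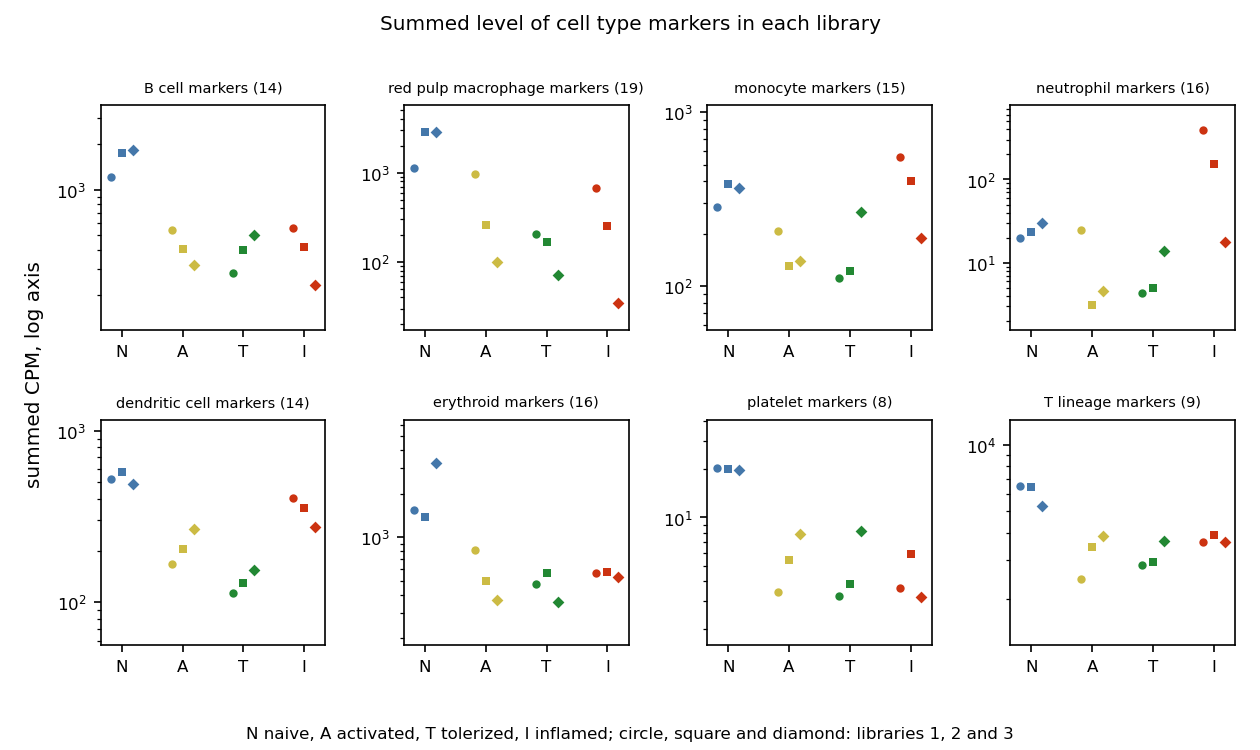
The summed level of each marker list is on the y axis in CPM, on a log axis, for each library by group on the x axis (N naive, A activated, T tolerized, I inflamed; circle, square and diamond mark libraries 1, 2 and 3; the number of genes in the sum is in each title). Red pulp macrophage markers lie between 1135 and 2871 CPM in naive libraries and at 34.5 CPM in inflamed library 3, and neutrophil markers are highest in inflamed libraries 1 and 2 at 392 and 155 CPM.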

How the data were processed

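The submitters' processing notes name TopHat2, bedtools, DESeq and the mouse build mm10/GRCm38, without versions; how reads were assigned to genes is not given in the sources used here. The deposited table holds the authors' read counts per gene, written with commas, which were removed; because of that format the counts were entered as values of another kind, and limma was used in place of the planned count model. The labels' extraction text speaks of cultured fibroblasts, while the samples are labelled as sorted spleen T cells.

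Counts were divided by library size with TMM factors (0.897 to 1.22, trimming 30% of ratios and 5% of levels on each side) to CPM. Genes with at least 0.258 CPM (10 reads in the median library) in 3 libraries and 15 reads in all were kept. limma-trend (limma 3.58.1, R 4.3.3) was fitted to log2(CPM + 1) of all 12 libraries with 4 group means, tested on simulated data first, and p-values were adjusted by the Benjamini-Hochberg method. The simulated data held changes in few genes, so they did not test scaling in a comparison this wide. Lists are described by counts and medians, without a set test. Promoters are from RefSeq.

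Genes were named by a rule: the 15 largest called rises and falls with at least 10 CPM and no overlap, leaving out predicted genes and receptor segments, 5 genes with the smallest adjusted p and the one nearest no change of each list, reference genes, the 10 highest RPKM and the 8 largest rises and falls against the other treated groups. The members and lists were chosen with earlier results of these data known.

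Same-numbered libraries were checked for pairing: deviations of inflamed and naive libraries correlated at -0.463, 0.019 and -0.257, of inflamed and tolerized at 0.273, -0.069 and -0.167, and of inflamed and activated at 0.636, 0.225 and 0.146. The last pairs all exceed 0.1, though the meaning of a number is not labelled. Pairs with different numbers were higher for inflamed library 2 (0.562 with activated library 3) and inflamed library 3 (0.25 with activated library 2). For inflamed library 1 they were negative (-0.421 and -0.557). Pairing by number is therefore not settled by these values. A few genes of the lists are counted with them and not reported here by name.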

Additional observations from a re-analysis of the deposited data

How the results depend on the processing

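The count of genes called between inflamed and naive cells stayed within 1.5 times under every alternative run (other scalings, filters, pseudocounts, voom weights, 2 groups only, each library left out). Counts against the other treated groups moved more: with 2 groups in the fit 151 genes were called against tolerized and 99 against activated cells, and without 1 library 156 to 540 and 107 to 338. With the replicate number as a block 9027, 350 and 228 genes were called against naive, tolerized and activated cells, in place of 9050, 348 and 240. Of 384 genes named by the rule 324 were called, 300 of them without each library in turn and 295 under every alternative that tested them. Library-size scaling reversed the direction of Mrpl4 (-0.01), Psmb1 (-0.07), Keap1 (-0.24), Sel1l (-0.27), Taldo1 (-0.29), Clock (-0.29), Tcf12 (-0.30) and Mvk (-0.30). The cause of these changes was not tested. The 3 libraries a group limit precision: the median half-width of a gene's 95% interval was 0.34 on the log2 scale.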
